A study of Mus musculus with 6 samples.

Results

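The genes described here are 47 genes of DNA damage repair and of the checkpoint that halts the cell cycle when DNA is damaged, chosen by name out of the 35869 gene symbols listed for each library. They were arranged in 7 pathways: 4 checkpoint kinases, 14 genes of homologous recombination, 8 of the Fanconi anaemia pathway, 4 of end joining, 8 of base excision and single-strand break repair, 3 of mismatch repair and 6 of nucleotide excision repair. RNA sequencing of polyadenylated RNA was done on mouse acute myeloid leukaemia cells made by retroviral transfer of the MLL-AF9 fusion, an oncogene of human leukaemia. All 6 libraries came from cells with floxed alleles of Chaf1b, a subunit of the chromatin assembly factor CAF-1 that places new histones on replicated DNA. All cells also carried CreERT2, an inducible recombinase joined to a form of the oestrogen receptor. The 3 KO libraries came from cells given B-estradiol, and the 3 WT libraries from cells given ethanol vehicle, so "WT" here means floxed and undeleted. Cells were cultured with SCF, IL6 and IL3 and lysed 48 hours after induction. The labels speak of leukaemic clones with clonal controls but do not say which clone or culture gave each library, so p-values measure only the spread among these libraries, and that may be technical. The ligand and the deletion were given together and cannot be told apart. Values are TPM, a share of all transcripts corrected for their length and brought to the same total in each library, so levels of different genes can be compared. TPM keeps no depth, and the depth behind each value is unknown beyond the 120 M reads that the labels state per sample.

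Cells repair each kind of DNA lesion by its own route. Damaged or misplaced single bases are cut out by base excision repair, bulky lesions by nucleotide excision repair, replication errors by mismatch repair and crosslinks between the strands through the Fanconi anaemia proteins. Double-strand breaks are rejoined directly by end joining, or copied from the sister chromatid by homologous recombination. The kinases ATM and ATR sense breaks and stalled forks and act through CHK2 and CHK1 to hold the cell cycle. Many of these genes are transcribed most strongly in cycling cells.

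The targeted gene, Chaf1b, was at 17.7, 14.4 and 14.2 TPM in KO replicates 1 to 3 and at 48.6, 49.0 and 50.6 TPM in WT replicates 1 to 3, so the libraries labelled KO held less of it, in all 3 cases. Of 10 markers of myeloid blasts all were tested, and their summed TPM was 1043 to 1103 in KO and 1023 to 1160 in WT, with 1 called higher and 1 lower. Of 6 lymphocyte markers, 3 (Ms4a1 and Ncr1 among them) were listed at 0 in every library. The sum of the 6 was 1.2 to 1.6 TPM in KO and 0.5 to 0.7 TPM in WT, and the 1 that was tested, Cd79a, was called higher. A pair of libraries stood apart from their groups; the column header of one of them, WT replicate 1, carries a note of a replacement whose meaning is not given. Pearson's r across the 13575 tested genes, on log2(TPM + 1), reached 0.998 for KO replicates 2 and 3 and also for WT replicates 2 and 3. It was 0.991 and 0.992 between KO replicate 1 and its group, and 0.984 and 0.986 between WT replicate 1 and its group (genes are not independent replicates). Pathway medians and the main results are therefore given also without KO replicate 1 and WT replicate 1, an alternative added with these correlations known. KO replicate 1 was also the KO library closest to WT, with r of 0.982 to 0.986 to the WT libraries. For KO replicates 2 and 3 the corresponding values were 0.961 to 0.967. Leaving out KO replicate 1 thus removes the KO library most like WT, so this alternative is not a neutral removal of outliers. The same-strand or antisense neighbours of a gene can share its reads: 9 of the 47 members have at least 10% of their exonic bases inside an exon on the opposite strand in GENCODE M21. Nothing in the sources used here says whether the counting used strand.

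Of the 47 genes, 45 passed the filter of 1 TPM in 3 or more libraries, and limma tested them among all genes on log2(TPM + 1). Log2 fold changes are KO minus WT on that scale, and a gene was called at an adjusted p under 0.05. The genes Parp1, Ung, Ercc2 and Xpc fell in KO, and no member rose. These 4 calls are 8.89% of the tested members, beside 6.11% of all tested genes called lower. Of genes whose mean was 10 TPM or more, 4 of 24 members (16.7%) and 9.29% of all genes were called lower. Higher calls were made for 0 members and for 12.9% of all genes, a share not matched for level. Over all genes that is 1745 higher and 830 lower as deposited, 1568 and 1844 after centring each library on its median, and 1346 and 1722 after quantile normalization; 6 members were lower and 0 higher in either scaling (0 at an unadjusted limma p under 0.05), beside 13.6% and 12.7% of all genes lower. In the fit limited to genes averaging 5 TPM or more, 883 genes were called higher and 695 lower. Higher calls thus dropped more than lower calls when weaker genes were left out. That fit held 35 members, of which 0 were called higher and 4 lower. At an unadjusted limma p under 0.05 there were 8 of the 45 tested members (17.8%), all lower in KO. Over all genes 38% had such a p, and 16.6% had it and were lower. The median log2 fold change over the members was -0.04, beside 0.01 over all genes. The values ranged from -0.42 for Parp1 to 0.20 for Brca1, so no member differed by as much as 1.5-fold.

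**Figure D1:**
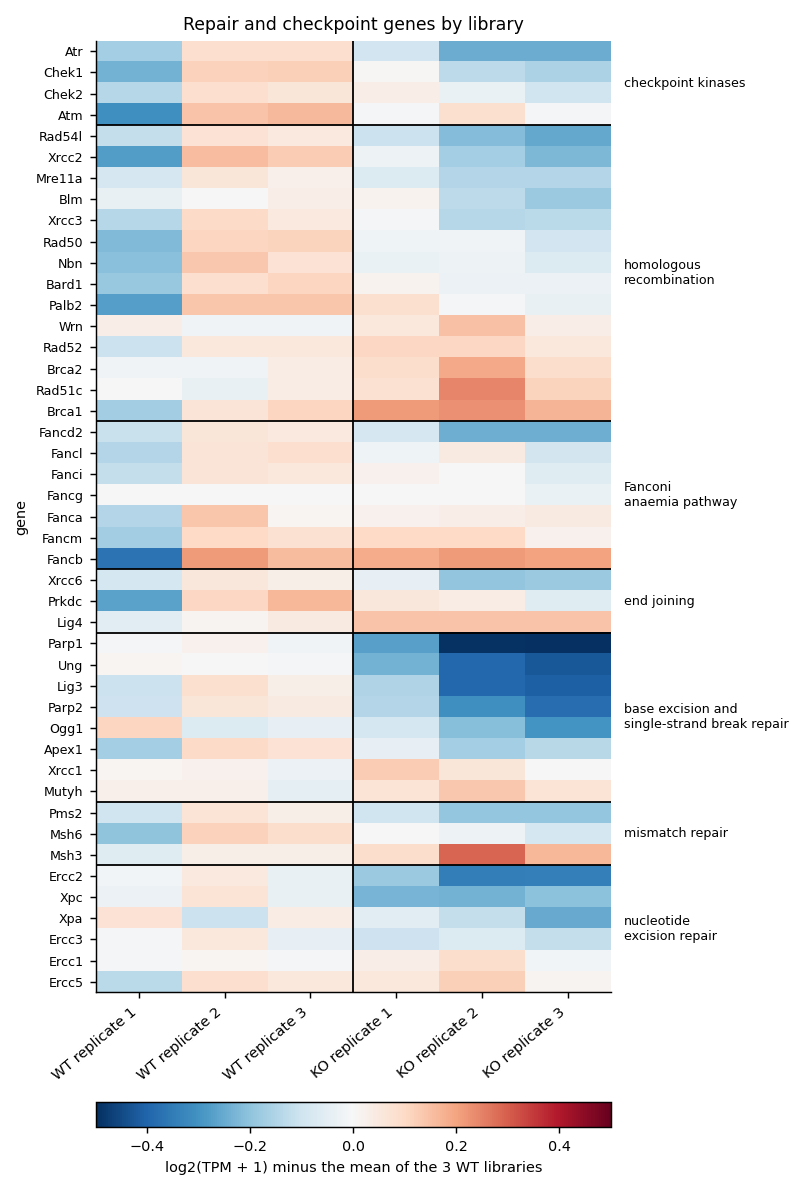
Level of each of the 45 tested genes (vertical axis, grouped by pathway) in each of the 6 libraries (horizontal axis), as log2(TPM + 1) minus the mean of the 3 WT libraries; blue is lower and red higher. The base excision genes Parp1, Ung, Lig3 and Parp2 are blue in the 3 KO columns, while the WT replicate 1 column is blue across most checkpoint, recombination and Fanconi genes.

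The calls depended on single libraries. Lower calls among the members numbered 0 when KO replicate 2, KO replicate 3, WT replicate 2 or WT replicate 3 was left out. Few genes of any kind were called lower in those fits: 3, 0, 2 and 1 of all tested genes (0.0221%, 0%, 0.0147% and 0.00737%). They held 5, 5, 5 and 6 lower members at an unadjusted limma p under 0.05. Of all 13575 tested genes, 3220, 3381, 3831 and 3886 had such a p in either direction. Without KO replicate 1 there were 6 lower calls of 45, beside 11.9% of all genes, and without WT replicate 1 there were 12 (26.7% of the members, beside 14.2% of all genes). With KO replicate 1 and WT replicate 1 both left out, 22 members (48.9%) were lower and 0 higher (1 at an unadjusted limma p under 0.05). In that setting 27.3% of all genes were lower and 28.4% higher. Of genes whose mean was 10 TPM or more it was 16 of 24 members (66.7%) beside 37.1% of all genes. All 4 genes called with 6 libraries were among the 22. The medians of the Fanconi, end joining and mismatch repair genes were -0.03, -0.15 and -0.16 in that setting. The difference between the members' share and that of all genes was not tested.

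Base excision and single-strand break repair had the lowest median of the 7 pathways, at a log2 fold change of -0.24, and 2 of its 8 tested genes fell. The median was -0.32 without KO replicate 1 and WT replicate 1, and 6 of the 8 were then lower, beside 27.3% of all genes. Parp1, the abundant enzyme that binds DNA nicks and marks them with poly(ADP-ribose), lies on mm10 chromosome 1 (180568891 to 180600999). It was at 185.8, 158.9 and 158.7 TPM in KO replicates 1 to 3 and at 223.7, 227.8 and 221.5 TPM in WT replicates 1 to 3. Every KO value lay below every WT value, and KO replicate 1 was the KO library nearest to WT. The means were 167.8 ± 15.6 TPM in KO and 224.3 ± 3.20 TPM in WT (SD, n = 3), a ratio of 0.748. The log2 fold change came to -0.42 (SE 0.07, 95% confidence interval -0.59 to -0.25, limma adjusted p = 0.018), and -0.50 without KO replicate 1 and WT replicate 1. Permuting the 6 TPM values exactly (two-sided) gave p = 0.1 for Parp1, as for Ung, Ercc2 and Xpc, the smallest p that 3 against 3 libraries allow.

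Ung encodes the uracil-DNA glycosylase that removes uracil from DNA (chromosome 5, 114130366 to 114139321). It was at 26, 23.2 and 22.7 TPM in KO and 31.0, 30.8 and 30.6 TPM in WT, with no overlap and with a WT spread of only 0.2 TPM (SD, n = 3). The difference on the log2 scale was -0.35 (SE 0.06, limma adjusted p = 0.022), and -0.40 without the libraries that stood apart. Parp2, the second DNA-damage-activated polymerase of the family, was at 62.3, 55.7 and 52.8 TPM in KO and 64.2, 72.1 and 71.2 TPM in WT. These groups did not overlap, but the gap between KO replicate 1 and WT replicate 1 was small, and the log2 fold change of -0.28 did not pass (limma adjusted p = 0.057). Lig3, the DNA ligase that seals nicks together with the scaffold XRCC1, was at 8.8, 7.3 and 7.2 TPM in KO and 9.1, 10.5 and 10.1 TPM in WT (log2 fold change -0.32, limma adjusted p = 0.064). In both Parp2 and Lig3, KO replicate 1 lay close to WT replicate 1, with KO replicates 2 and 3 lower. Their adjusted p ranged from 0.0033 to 0.195 for Parp2 and from 0.0033 to 0.216 for Lig3 across the alternatives. In GENCODE M21, 25.1% of the exonic bases of Lig3 lie inside exons of Rffl on the other strand, so its value is uncertain.

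The other base excision genes went different ways. Ogg1, the glycosylase for oxidised guanine, was at 14.3, 13.0 and 12.2 TPM in KO and 16.5, 14.5 and 14.8 TPM in WT (log2 fold change -0.20, limma adjusted p = 0.13), without overlap. Apex1, the endonuclease that cuts at sites that have lost their base, was the most abundant member. It was at 348.9, 319.2 and 325.8 TPM in KO and 318.8, 383.7 and 377.5 TPM in WT, where WT replicate 1 lay below every other library. Its exons overlap those of Pip4p1 on the other strand over 61.7% of their bases. Xrcc1 was at 13.6 ± 0.65 TPM in KO against 13.0 ± 0.26 TPM in WT (SD, n = 3). Mutyh, which removes adenine paired with oxidised guanine, had the largest log2 fold change of the pathway at 0.09, from 5.2, 5.2 and 4.9 TPM in WT to 5.4, 5.7 and 5.4 TPM in KO, and did not pass (limma adjusted p = 0.34).

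**Figure D2:**
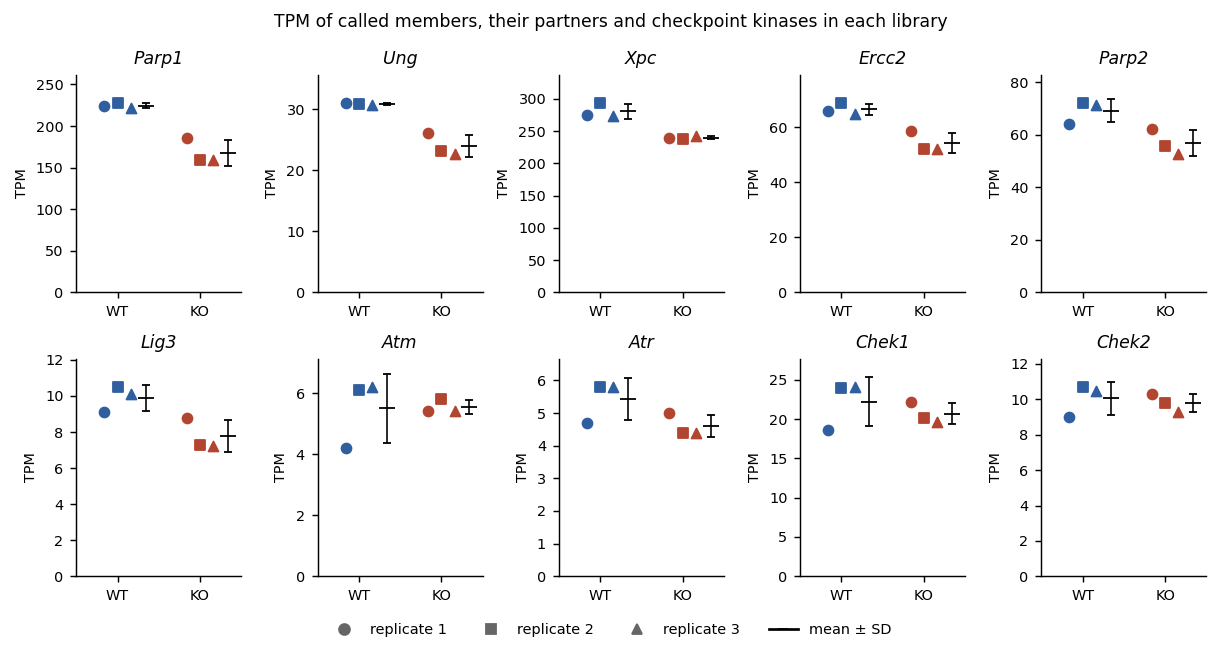
TPM in each library (vertical axes, each from 0) for the 4 genes that fell (Parp1, Ung, Xpc, Ercc2), for Parp2 and Lig3, and for the 4 checkpoint kinases; symbols mark the replicate, and black bars give the mean and SD of 3 libraries. The KO points of the first 6 genes lie below their WT points, while WT replicate 1 is the lowest WT point for each checkpoint kinase.

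Promoter sequences are shown for the genes that fell, since these were the called members. RefSeq windows of GRCm38.p6, the assembly that mm10 names, matched 39 of the 47 members. Xpc was not among the 39. Each run is the strand of the gene, 5′ to 3′, from the 250 bases before the start, ending before the first exon annotated there. Capitals mark matches on either strand to letters known from promoters of cycling cells. The E2F-type letters searched were TTCCCGC, together with the form TTGGCGC and the further form TTCGCGC. The NF-Y-type letters were CCAAT, and those of a cell-cycle homology region were TTTGAA.
Parp1 promoter, chr1:180568641-180568890, plus strand: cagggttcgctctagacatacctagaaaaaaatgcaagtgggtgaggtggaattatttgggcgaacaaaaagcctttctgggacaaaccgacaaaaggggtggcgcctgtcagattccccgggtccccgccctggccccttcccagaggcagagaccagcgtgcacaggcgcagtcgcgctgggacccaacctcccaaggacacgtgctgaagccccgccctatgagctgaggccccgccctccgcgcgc
Ung promoter, chr5:114130185-114130365, plus strand: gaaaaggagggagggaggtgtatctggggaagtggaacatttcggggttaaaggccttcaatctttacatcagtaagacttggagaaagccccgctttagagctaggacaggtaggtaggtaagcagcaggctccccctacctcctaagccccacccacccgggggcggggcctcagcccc
Ercc2 promoter, chr7:19381767-19382009, plus strand: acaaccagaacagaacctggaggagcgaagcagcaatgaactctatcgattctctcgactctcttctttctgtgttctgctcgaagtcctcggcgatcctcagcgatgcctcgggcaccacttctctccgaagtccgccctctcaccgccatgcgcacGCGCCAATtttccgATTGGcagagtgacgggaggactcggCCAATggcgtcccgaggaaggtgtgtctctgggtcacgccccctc
The Parp1 and Ung runs hold none of these letters. The Ercc2 run holds 1 E2F-type match and 3 CCAAT matches, of which 1 overlaps the E2F-type match. Over all members, 15 of 43 windows (34.9%) held an E2F-type match in the 250 bases, beside 6.69% of all 32851 windows and 11.5% of the windows of tested genes. CCAAT was in 53.5% of the members' windows, 33.8% of all and 35.8% of those of tested genes. TTTGAA was in 4.65%, 16.0% and 11.2%. A match describes the letters only.

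Nucleotide excision repair had a median of -0.12, the next lowest with all 6 libraries, and 2 of its 6 tested genes fell. Its median without KO replicate 1 and WT replicate 1 was again -0.12 with 2 lower, beside 27.3% of all genes. In that setting 5 of the 7 pathways had a lower median. Xpc, which recognises helix-distorting lesions and starts repair across the genome, lies on chromosome 6 (91489305 to 91515888). It was at 238.8, 238.0 and 243.3 TPM in KO and 275.0, 293.9 and 273.1 TPM in WT. The 3 KO libraries lay close together and below all WT libraries. The log2 fold change was -0.22 (SE 0.04, 95% confidence interval -0.33 to -0.12, limma adjusted p = 0.025), and -0.23 without KO replicate 1 and WT replicate 1. Xpc was the one called gene in which KO replicate 1 was not the KO library nearest to WT. Ercc2, the XPD helicase of the transcription and repair factor TFIIH (chromosome 7, 19382017 to 19395694), was at 58.5, 52.2 and 52.3 TPM in KO and 66.0, 68.9 and 64.9 TPM in WT. Its groups did not overlap, and they differed by -0.29 on the log2 scale (SE 0.06, limma adjusted p = 0.029), or by -0.35 without KO replicate 1 and WT replicate 1. In GENCODE M21, 42.4% of its exonic bases lie inside exons of Klc3 and Gm26852 on the other strand, so its value is uncertain. Across the alternatives the adjusted p ranged from 0.0014 to 0.095 for Parp1, 0.0024 to 0.108 for Ung, 0.017 to 0.110 for Xpc and 0.0048 to 0.130 for Ercc2.

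Ercc3, the XPB helicase of TFIIH, was at 33.1 ± 0.61 TPM in KO against 35.5 ± 1.18 TPM in WT (SD, n = 3), also with no overlap (log2 fold change -0.10, limma adjusted p = 0.205). Xpa, the scaffold that verifies the lesion, had a log2 fold change of -0.14 (limma adjusted p = 0.25). Ercc1, part of the nuclease that cuts 5′ of the lesion, was at 17.6 ± 0.65 and 17.2 ± 0.12 TPM. Ercc5, the XPG nuclease that cuts 3′ of it, had the largest log2 fold change of the pathway at 0.06, from 2.6, 3.2 and 3.1 TPM in WT to 3.1, 3.3 and 3.0 TPM in KO. Its groups overlapped.

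None of the 4 checkpoint kinases passed the test with all libraries, and WT replicate 1 was the lowest WT library for each. Their median log2 fold change was -0.06, and -0.20 without KO replicate 1 and WT replicate 1. At an unadjusted limma p under 0.05 there was none of them either. Atm was at 5.4, 5.8 and 5.4 TPM in KO and 4.2, 6.1 and 6.2 TPM in WT (log2 fold change 0.02, 95% confidence interval -0.31 to 0.35). The KO values lay between WT replicate 1 and the other WT libraries. Atr was at 5.0, 4.4 and 4.4 TPM in KO and 4.7, 5.8 and 5.8 TPM in WT (log2 fold change -0.20, interval -0.44 to 0.04, limma adjusted p = 0.19). Chek1, the kinase that ATR activates at stalled forks, was at 22.2, 20.1 and 19.7 TPM in KO and 18.6, 24.0 and 24.1 TPM in WT (-0.09, interval -0.36 to 0.18). Chek2, the target of ATM, was at 10.3, 9.8 and 9.3 TPM in KO and 9.0, 10.7 and 10.5 TPM in WT (-0.03, interval -0.23 to 0.17). In each kinase WT replicate 1 lay below WT replicates 2 and 3 by more than KO replicates 2 and 3 differed from each other. Without KO replicate 1 and WT replicate 1, Atr and Chek1 were called lower, with log2 fold changes of -0.33 and -0.26 (limma adjusted p = 0.0064 and 0.0058), while Atm and Chek2 were not (0.13 and 0.066). Of all tested genes, 27.3% were called lower in that fit. Across the alternatives the adjusted p ranged from 0.0064 to 0.43 for Atr and from 0.0058 to 0.89 for Chek1.

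Homologous recombination genes showed 0 calls among 14 with all libraries, and 1 at an unadjusted limma p under 0.05, with a median log2 fold change of -0.03. Brca1, the ubiquitin ligase subunit that steers breaks to recombination, had the largest value of all members. It was at 16.5, 16.7 and 16.0 TPM in KO and 12.4, 14.8 and 15.3 TPM in WT, so that all KO libraries lay above all WT libraries. The log2 fold change was 0.20 (95% confidence interval -0.01 to 0.41, limma adjusted p = 0.14), and 0.11 without KO replicate 1 and WT replicate 1. Bard1, its partner in the heterodimer, was at 11.4 ± 0.23 TPM in KO against 11.6 ± 1.39 TPM in WT (SD, n = 3). Brca2, which prepares resected ends for strand exchange, and Rad51c, which acts in the same step, were weakly expressed, at 1.87 ± 0.12 and 3.20 ± 0.26 TPM in KO and 1.63 ± 0.06 and 2.80 ± 0.10 TPM in WT. Both had KO values above all WT values and neither passed (limma adjusted p = 0.30 and 0.24). Rounding to 1 decimal is a large step at such levels.

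The lowest log2 fold change of the recombination genes was that of Rad54l, a motor protein that helps strand exchange. It was at 15.6, 14.4 and 14.0 TPM in KO and 15.5, 17.8 and 17.5 TPM in WT (-0.19, limma adjusted p = 0.12). KO replicate 1 and WT replicate 1 lay within 0.1 TPM of each other. Lrrc41 exons cover 15.4% of its exonic bases on the other strand. RAD50, NBN and MRE11 form the MRN complex that senses breaks. Rad50 was at 75.8, 76.1 and 72.0 TPM in KO and 66.0, 83.1 and 83.2 TPM in WT. Nbn was at 20.0, 20.1 and 19.5 TPM in KO and 17.6, 22.6 and 21.6 TPM in WT. In both genes the KO libraries lay between WT replicate 1 and the other WT libraries. Mre11a was at 6.6, 6.2 and 6.2 TPM in KO and 6.5, 7.3 and 7.1 TPM in WT, with KO replicate 1 and WT replicate 1 close together. Xrcc2 and Xrcc3, which also act in strand exchange, and the helicase gene Blm had log2 fold changes of -0.14, -0.10 and -0.10. Palb2, which bridges BRCA1 and BRCA2, was at a mean of 3.77 TPM in both groups, and Rad52 and Wrn at 0.09 and 0.08 on the log2 scale. Without KO replicate 1 and WT replicate 1, 8 of the 14 genes were called lower and 0 higher, with a median of -0.16 (1 library of each group fewer, so 2 against 2). In that fit 27.3% of all tested genes were called lower and 28.4% higher.

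**Figure D3:**
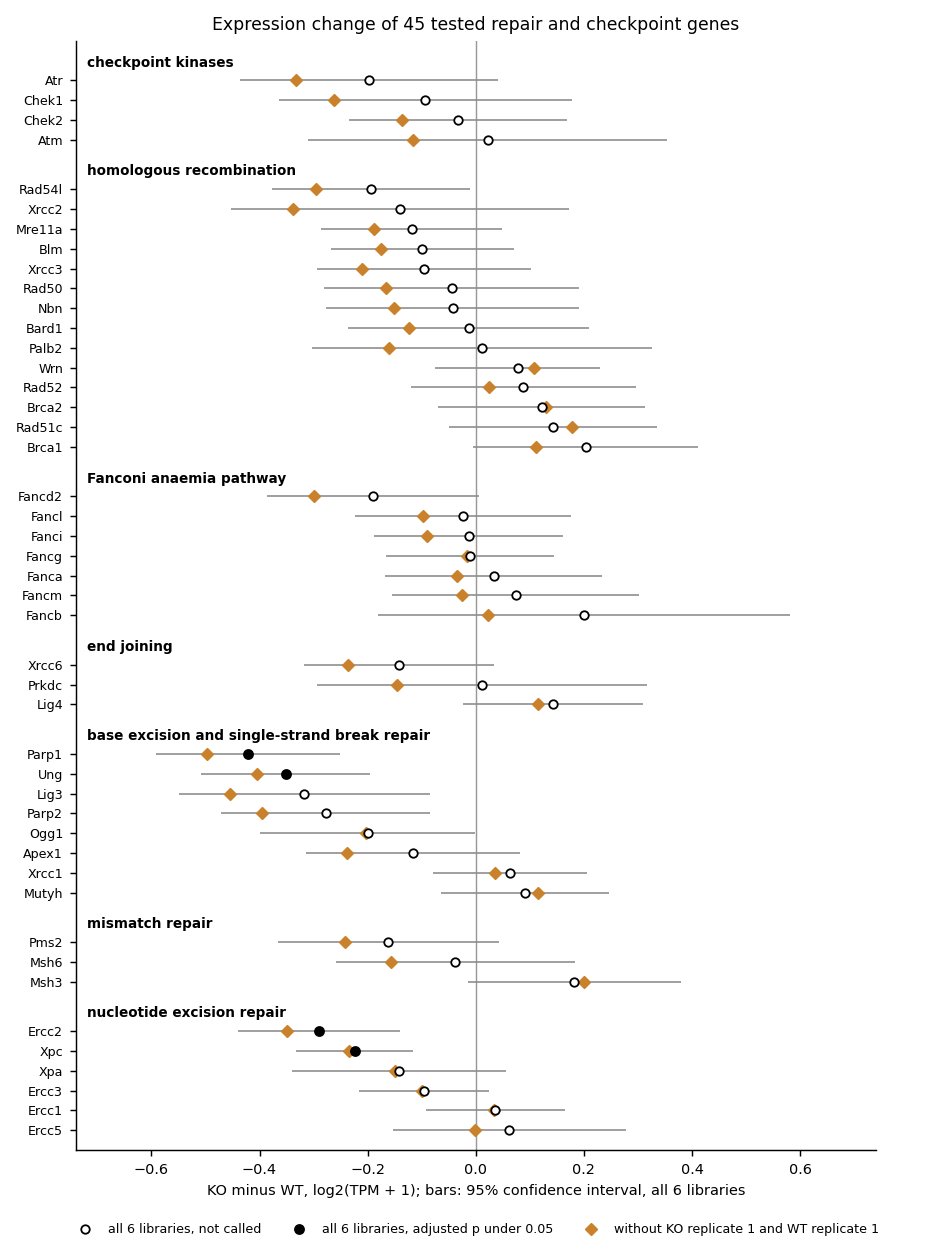
Log2 fold change of KO minus WT on log2(TPM + 1) (horizontal axis) for each of the 45 tested genes (vertical axis, by pathway), with circles and 95% confidence intervals for all 6 libraries, filled where the adjusted p was under 0.05, and diamonds without KO replicate 1 and WT replicate 1. The 4 filled circles are Parp1, Ung, Ercc2 and Xpc, and most diamonds of the checkpoint and recombination genes lie to the left of their circles.

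Of 7 tested Fanconi anaemia genes none was called, and none had an unadjusted limma p under 0.05, with a median log2 fold change of -0.01. Fancd2, which is placed on DNA when a crosslink is met, had the lowest value. It was at 9.4, 8.3 and 8.3 TPM in KO and 9.2, 10.5 and 10.4 TPM in WT (-0.19, limma adjusted p = 0.14). Fancd2 was the 1 member of the pathway called lower without KO replicate 1 and WT replicate 1, where 27.3% of all genes were. Its partner Fanci was at 11.6 ± 0.36 TPM in KO against 11.7 ± 0.90 TPM in WT (SD, n = 3). Fancb, of the core complex that modifies FANCD2, had the largest value, 0.20, from 5.8, 9.2 and 8.8 TPM in WT to 9.0, 9.2 and 9.1 TPM in KO. WT replicate 1 was far below the other 5 libraries, and without the libraries that stood apart the value was 0.02. Fanca, Fancg, Fancl and Fancm, other parts of the core complex or its anchor, lay between -0.02 and 0.07. Fancc stayed at 0.7 to 0.9 TPM in all libraries and was not tested.

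Among the end joining genes, 0 of 3 tested were called and none had an unadjusted limma p under 0.05. Xrcc6, which encodes Ku70 of the ring that holds broken ends, was at 14.6, 13.0 and 13.1 TPM in KO and 14.1, 15.7 and 15.4 TPM in WT (log2 fold change -0.14, limma adjusted p = 0.20). Its partner Xrcc5, which encodes Ku80, was listed at 0.1 TPM in every KO library and at 0 in every WT library, and was left out by the filter on low values. Since Ku70 and Ku80 form an obligate pair, this listing and the 14.3 TPM mean of Xrcc6 stand far apart, and the Xrcc5 value is uncertain. None of its exonic bases lie inside another gene's exons in GENCODE M21. Lig4, the ligase of end joining, had the largest value, 0.14, with 3.6 TPM in each KO library and 3.0, 3.2 and 3.3 TPM in WT, without overlap (limma adjusted p = 0.18). Prkdc, the DNA-dependent kinase that Ku recruits, was at a mean of 5.20 TPM in both groups.

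Of the mismatch repair genes, 0 of 3 passed and none had an unadjusted limma p under 0.05. Msh3, which serves longer loops, was at 4.2, 5.0 and 4.5 TPM in KO and 3.7, 4.0 and 4.0 TPM in WT, without overlap (log2 fold change 0.18, limma adjusted p = 0.15). Msh6, which serves base mismatches and is far more abundant, was at 109.3, 107.4 and 102.8 TPM in KO and 94.9, 118.4 and 116.2 TPM in WT (-0.04). WT replicate 1 lay below the KO libraries and the other WT libraries above them. Pms2, which nicks the new strand, had the lowest value, -0.16, with 2.2, 2.0 and 2.0 TPM in KO and 2.2, 2.6 and 2.5 TPM in WT (limma adjusted p = 0.21).

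WT replicate 1 was the lowest of the 6 libraries for 21 of the 45 tested members (46.7%), beside 24.5% of all tested genes. It lay below WT replicates 2 and 3 in 31 members (68.9%) and above them in 4, while over all genes it lay below in 43.3% and above in 43.1%. The members' median, relative to the WT mean of each gene, was -0.11 in WT replicate 1 and 0.06 and 0.05 in WT replicates 2 and 3. By pathway, WT replicate 1 stood at -0.20 for the checkpoint kinases, -0.15 for the Fanconi genes and -0.13 for recombination, but at 0.00 for base excision and -0.01 for nucleotide excision repair. The corresponding base excision medians in KO replicates 1, 2 and 3 were -0.12, -0.26 and -0.34. KO replicate 1 lay above KO replicates 2 and 3 in 25 members (55.6%), beside 44.1% of all genes. Every KO library lay below every WT library in 8 members (17.8%), beside 19.5% of all genes, and above in 6 (13.3%), beside 23.4%.

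Other measures moved with these libraries. Over 17 genes of S phase and proliferation, the summed TPM was 3561 in WT replicate 1, 3950 and 3987 in WT replicates 2 and 3, and 3717 to 3778 in KO. Of these 17 genes limma called 0. At an unadjusted limma p under 0.05 there were 5, with Mcm2, Mcm3, Mcm4 and Mcm6 lower and Rrm2 higher, beside 38% of all genes. Without KO replicate 1 and WT replicate 1 limma called 9 lower and 1 higher. That fit called 27.3% of all genes lower and 28.4% higher. The summed TPM of 8 markers of mature granulocytes was 222.9 in WT replicate 1, 25.2 and 32.7 in the other WT libraries, and 66.4 to 134.9 in KO, and none of the 8 was at 0 in all libraries. Of these markers 6 were tested, and 1 was called higher in KO. The high sum in WT replicate 1 came from Ly6g, Cxcr2, Mmp9, Ngp and Mmp8. Camp, Ltf and Csf3r did not share it, at 2.6, 0.1 and 5.0 TPM there and 2.3, 0.3 and 4.7 TPM in WT replicate 2. The summed TPM of 7 erythroid markers was 22 to 34.3 in KO and 12.7 to 21.2 in WT, with 2 of 5 tested called higher and none at 0 in all libraries. Not all went with the sum: Hbb-bt was at 2.3, 1.7 and 0.7 TPM in KO and 2.9, 2.3 and 2.6 TPM in WT, and Hbb-bs overlapped. Fewer cells of a type and less RNA per cell cannot be told apart in such bulk libraries. Their part in the members' values was not tested. Of 15 tested p53 target genes, which the checkpoint switches on, 2 rose and 1 fell (13.3% and 6.67%, beside 12.9% and 6.11% of all genes). Btg2 and Trp53inp1 rose by log2 fold changes of 0.77 and 0.96 (limma adjusted p = 0.011 and 0.030), while Phlda3 fell by 0.40 (0.046). Without WT replicate 1 there were 4 higher and 1 lower, beside 2927 and 1923 of all 13575 genes. Without KO replicate 1 and WT replicate 1 there were 5 higher and 2 lower (33.3% and 13.3%), beside 28.4% and 27.3% of all genes. Cdkn1a, which halts the cell cycle, then had a log2 fold change of 0.40 and was called, against 0.24 with all libraries, where it was not. The 2 lower genes were Sesn2 and Aen, at -0.56 and -0.28 (limma adjusted p = 0.0014 and 0.012). Phlda3 was not called in either of those fits. The summed TPM of the p53 target list was 729 to 767 in KO and 694.5 to 828 in WT.

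A ratio between 2 genes in one library does not depend on how that library was scaled. For 12 pairs of partners among the members, picked for their shared complex or role after the values were seen, 6 ratios did not overlap between the groups: 5 were lower and 1 higher in KO. That share was close to the one over all 990 pairs of tested members, of which 49.4% did not overlap, and several of the 6 pairs hold a gene already described as lower. The ratio of Brca1 to Bard1 was 1.41, 1.48 and 1.42 in KO replicates 1 to 3 and 1.24, 1.20 and 1.22 in WT replicates 1 to 3. This was the only pair of the 12 with a higher non-overlapping ratio in KO. Ercc2 to Ercc3 stood at 1.77, 1.54 and 1.604 in KO and at 1.875, 1.872 and 1.881 in WT. Fancd2 to Fanci stood at 0.79, 0.71 and 0.74 in KO and at 0.86, 0.85 and 0.85 in WT. In these 3 pairs WT replicate 1 lay with the other WT libraries, unlike the level of many members. Lig3 to Xrcc1 was at 0.62, 0.54 and 0.55 in KO and 0.69, 0.80 and 0.80 in WT. Parp1 to Parp2 and Atr to Atm were also lower, at 2.95 ± 0.08 and 0.83 ± 0.09 in KO and 3.25 ± 0.20 and 1.00 ± 0.10 in WT (SD, n = 3). For Atr to Atm the nearest values were 0.926 in KO replicate 1 and 0.935 in WT replicate 3. That gap lies within the rounding of TPM to 1 decimal. The pairs were chosen with the values known, so no test is given. The other 6 ratios, among them Rad50 to Nbn at 3.76 ± 0.06 in KO and 3.76 ± 0.09 in WT, overlapped.

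**Figure D4:**
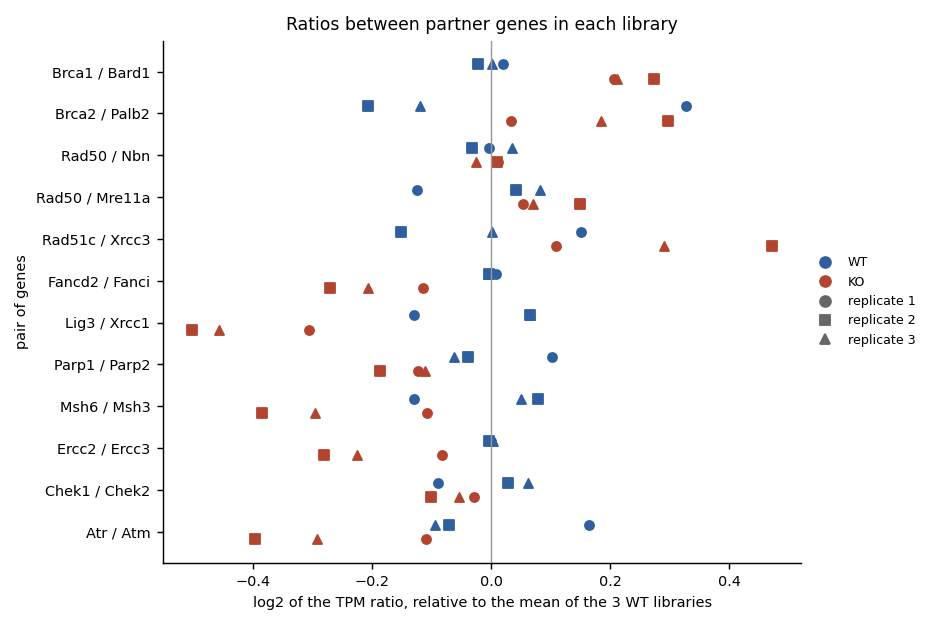
Log2 of the TPM ratio of 12 pairs of partner genes (vertical axis) in each library, relative to the mean of the 3 WT libraries (horizontal axis); blue marks WT, red KO, and symbols the replicate. The KO points of Brca1 to Bard1 lie right of all WT points, those of Fancd2 to Fanci, Lig3 to Xrcc1, Parp1 to Parp2, Ercc2 to Ercc3 and Atr to Atm left of them, and the other 6 pairs overlap.

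Further genes of the same pathways were followed as a list not picked for how they moved, though earlier results of these data were known. Of 92 listed, 91 were in the files and 89 were tested. Of these, 7 fell and 0 rose (7.87% and 0%), beside 6.11% and 12.9% of all genes (not matched for level). Their median log2 fold change was -0.05. At an unadjusted limma p under 0.05 there were 24, of which 15 were lower and 9 higher. Over all genes 38% had such a p, and 16.6% had it and were lower. Without KO replicate 1 and WT replicate 1, 37 were lower and 11 higher (41.6% and 12.4%), beside 27.3% and 28.4% of all genes. Of the 7 that fell with all libraries, those with the smallest adjusted p included Faap100, Gtf2h4 and Wdr48. Faap100, of the Fanconi core complex, was at 22.8, 19.9 and 20.8 TPM in KO and 29.1, 30.3 and 28.0 TPM in WT (log2 fold change -0.44, limma adjusted p = 0.015). Gtf2h4, a TFIIH subunit like Ercc2, was at 23.7, 20.0 and 20.4 TPM in KO and 28.1, 27.4 and 27.6 TPM in WT (-0.36, limma adjusted p = 0.027). Wdr48, which helps USP1 take ubiquitin off FANCD2, was at 36.8 ± 1.65 TPM in KO against 43.3 ± 0.75 TPM in WT (SD, n = 3; limma adjusted p = 0.034). Tdg, Rad23b and Faap24 also fell. By pathway, the falls were 3 of 14 nucleotide excision genes, 3 of 9 Fanconi genes and 1 of 16 base excision genes. The medians went other ways than those of the members in some pathways: 0.03 for these base excision genes against -0.24, and -0.16 for these Fanconi genes against -0.01. The 6 tested end joining genes of this list had a positive median, 0.10, with 2 of them at an unadjusted limma p under 0.05 and 0 called.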

How the data were processed

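RNA was sequenced in 6 libraries, 3 KO and 3 WT, as stranded poly(A) libraries with paired reads of 100 bp, per the labels' protocols. The submitters' processing notes name the build mm10, featureCounts 1.6.2, STAR 2.6.1e, cutadapt 1.9.1 and Trim Galore 0.4.2; no source used here gives the annotation or the strand setting. The authors deposited TPM per gene symbol, rounded to 1 decimal, summing to 999924 to 999935 per library. TPM keeps no depth, so no count model was used, and counting error is unknown.

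A gene was kept where 3 or more libraries reached 1 TPM (13575 of 35869). The genotypes were compared with limma 3.58.1 in R 4.3.3 on log2(TPM + 1), using trended eBayes, two-sided tests, Benjamini-Hochberg adjustment over all kept genes and calls at an adjusted p under 0.05. Fold changes on this scale understate changes of weakly expressed genes. Exact permutation tests used scipy 1.17.1.

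The members, lists and tests were chosen with earlier results of these data known. Values in every library are given for called members, the checkpoint kinases and each pathway's extremes; of the further repair genes, the 4 called in a direction with the smallest adjusted p were to be named, of which 1 is not reported here; Tdg, Rad23b, Faap24 and other values were added after they were seen. Positions came from RefSeq for GRCm38.p6 and exon overlaps from GENCODE M21. The test was checked on simulated data with independent noise, which holds no shift of a whole library. It recovered 10 of 50 changes of 1.25-fold and 33 of 50 of 1.5-fold, and 6.90% of its calls were false. A member that was not called may therefore still differ by a small amount. Alternatives were pseudocounts of 0.1, 0.5 and 5, dropping the filter, a minimum mean of 5 TPM, median-centring, quantile normalization, no variance trend, a replicate block and leaving out libraries.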

Additional observations from a re-analysis of the deposited data

How the results depend on the processing

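Over 15 alternatives set beforehand and 1 added after seeing the data (without KO replicate 1 and WT replicate 1), the 4 lower calls among the members were kept under every pseudocount, filter, scaling and variance setting, and 6 members were lower under median-centring and under quantile normalization. Without the filter 1 member, Xrcc5, was called higher. That call rests on 0.1 TPM in each KO library against 0 in each WT library, the smallest step of values rounded to 1 decimal. Over single libraries left out, lower members ranged from 0 to 12, lower genes of the other repair list from 0 to 20 and higher ones from 0 to 6, and all genes from 0 to 2927 higher and from 0 to 1923 lower. Without KO replicate 1 and WT replicate 1 the numbers were 22 lower members, 37 lower and 11 higher other repair genes, and 3859 higher and 3710 lower of all genes. There the log2 fold change of Palb2 turned from 0.01 to -0.16 and was called; over single libraries left out it ranged from -0.13 to 0.081. All genes called higher numbered 2730 without the filter and 883 at a mean of at least 5 TPM; those called lower numbered 1844 under median-centring and 1722 under quantile normalization, where other repair genes had 14 and 12 lower calls. These scalings moved the median of all genes from 0.01 to -0.05 and -0.07. Median-centring takes a constant from each library, so it lowered the log2 fold change of every gene by the same amount. Why the library medians differed, and the cause of the shift under quantile normalization, were not tested.

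Pathway medians that moved by more than 1 SD between libraries were those of recombination (-0.15 under quantile normalization, -0.16 without KO replicate 1 and WT replicate 1, and -0.12 to 0.027 over single libraries left out), end joining (-0.19 and -0.15, and -0.12 to 0.095 over single libraries left out), mismatch repair (-0.16 without both libraries, and -0.14 to 0.020 over single libraries left out) and nucleotide excision repair (-0.17 under median-centring, -0.20 under quantile normalization). Of 41 members not called, 22 changed sign under at least 1 alternative, and of the 4 called, 0 did. With the replicate number as a block, 0 members (7 lower at an unadjusted limma p under 0.05), 0 other repair genes, 300 higher and 33 lower genes were called. Of all tested genes, 4223 had an unadjusted limma p under 0.05 in that fit, in either direction. Deviations of same-numbered libraries from their group means correlated at -0.20, -0.15 and -0.16. Those of differently numbered libraries correlated at -0.21 to 0.23. With 3 libraries per group, such values cannot show whether the samples were paired, and the labels do not say.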
